A study of Rattus norvegicus with 6 samples.

Results

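Selenoprotein P (Selenop) and 9 other genes for selenoproteins were followed in rat intestinal epithelial IEC-6 cells depleted of Suz12. The 10 genes were Selenop, Selenow, Selenof, Selenos, Gpx1, Gpx3, Gpx4, Txnrd1, Msrb1 and Sephs2, each taken through every probe set annotated to that 1 symbol. They held 13 of the 31042 probe sets tested on the arrays, and 10 of the 14217 genes that had a probe set of their own. The genes were chosen by name with the log2 differences between ShSuz12 and ShControl arrays in view, so their differences, intervals and counts past a threshold are a description and no test of them.

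IEC-6 is a nontumorigenic line with the features of undifferentiated crypt cells of the rat small intestine, and Suz12 is a subunit of Polycomb repressive complex 2, which places the repressive trimethyl mark on histone H3 lysine 27. One population, ShSuz12, was infected with a lentivirus carrying a short hairpin RNA against Suz12, and the other, ShControl, with a scrambled hairpin. Both were kept as puromycin-selected populations in DMEM with fetal bovine serum and differed by the hairpin they carried, with 1 hairpin and 1 population behind each group. RNA from 3 independent experiments per group was hybridised to Affymetrix rat arrays, so the errors and p-values below measure the spread between experiments on the same 2 populations. In such bulk RNA, more cells expressing a gene and more RNA per cell cannot be told apart.

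Selenoproteins carry selenocysteine, an amino acid inserted at a UGA codon that would otherwise end translation, with the help of a stem-loop in the mRNA called the SECIS element. Most of those with a known function are oxidoreductases, such as the glutathione peroxidases and thioredoxin reductases. Selenoprotein P is a secreted protein with several selenocysteines, made mainly by the liver, which carries selenium through the plasma to other tissues, where it is taken up through the receptors Lrp8 and Lrp2. The intestinal epithelium contains several of these enzymes, among them Gpx2, the gastrointestinal glutathione peroxidase.

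Suz12, the targeted gene, was measured at log2 values of 8.45, 8.55 and 8.77 on the ShControl arrays and of 5.82, 5.77 and 5.91 on the ShSuz12 arrays. It was lower by 2.76 on the log2 scale (log2 difference -2.76, SE 0.09, limma adjusted p = 2.78e-07). Arrays of the same group correlated at 0.997 to 0.998 over all probe sets, and arrays of different groups at 0.979 to 0.980. The median of an array was 6.15 to 6.17 in ShControl and 6.26 to 6.27 in ShSuz12, a gap of 0.10, while the median difference over all probe sets was -0.05. Subtracting the array medians lowers every difference below by that 0.10. The sequence of Suz12 mRNA that the hairpin targets is given because it is what sets the groups apart.
Suz12 hairpin target: gctgacaatcaaatgaatcat

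Selenop differed most among the 10 selenoproteins, and did so on its brighter probe set only. Its brighter probe set gave 3.57, 3.81 and 3.50 on the ShControl arrays and 9.25, 9.16 and 9.28 on the ShSuz12 arrays. The lowest ShSuz12 array stood 5.36 above the highest ShControl array, with little spread within either group (SD 0.16 and 0.06, n = 3). The log2 difference was 5.61 (SE 0.09, 95% interval 5.41 to 5.80). The ratio of the measured values, 48.7-fold, is at most a lower bound, since detection on the ShControl arrays could not be assessed. On those arrays this probe set lay at percentile 8.17 of all probe sets, among the dimmest on the array, and on the ShSuz12 arrays it lay at percentile 85.9.

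The other Selenop probe set did not move in this way. It gave 3.10, 3.22 and 3.15 in ShControl and 3.37, 3.31 and 3.09 in ShSuz12, so the groups overlapped, and the log2 difference was 0.10 (SE 0.08, 95% interval -0.09 to 0.29). It lay at percentile 1.23 in ShControl and at percentile 2.46 in ShSuz12, near the bottom of the range in both. The pair of probe sets therefore disagree, and the difference of Selenop rests on the brighter one. Which part of the transcript each one detects was not analysed here.

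**Figure D1:**
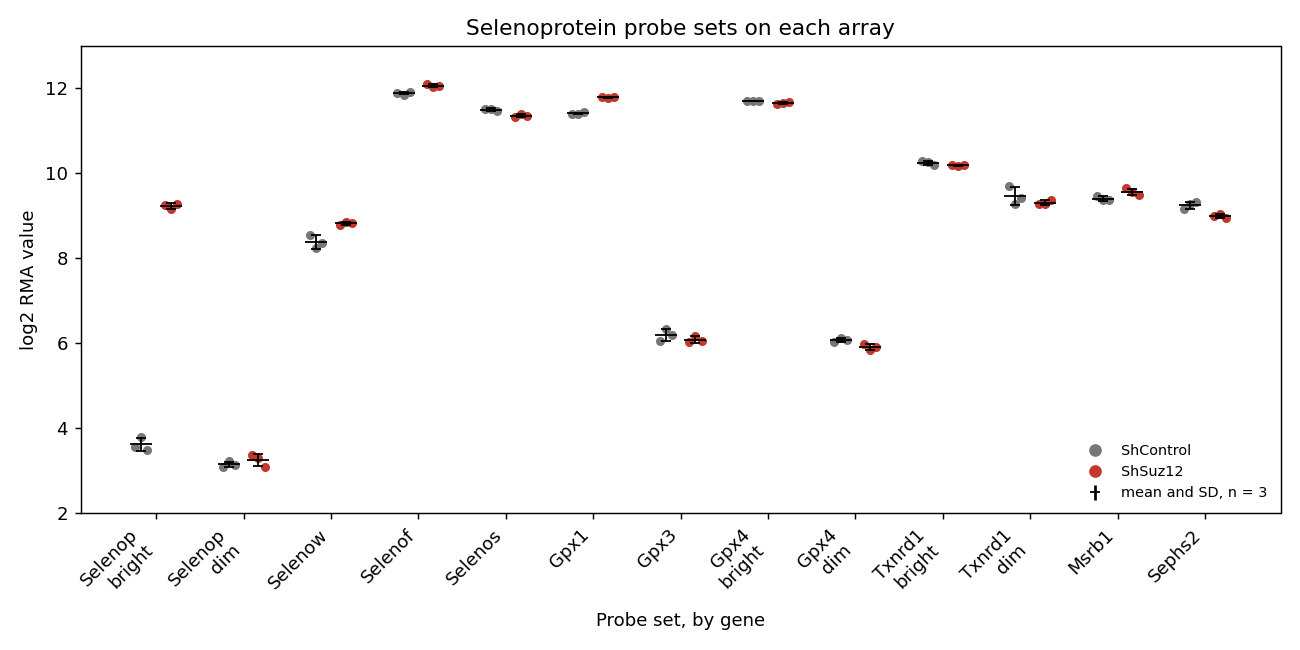
Log2 value (y axis) of each of the 13 selenoprotein probe sets (x axis) on the 3 ShControl and 3 ShSuz12 arrays, with a point per array and a bar at each group mean with its SD (n = 3). The brighter Selenop probe set goes from 3.50 to 3.81 in ShControl to 9.16 to 9.28 in ShSuz12, and every other probe set keeps both groups close together. Levels of different probe sets cannot be set against each other.

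The promoter of Selenop is shown because this gene changed most, and that of Selenof is shown beside it. Selenof encodes a protein of the endoplasmic reticulum and differed by 0.18 on the log2 scale between the groups. Selenof was itself counted as higher below, so it is no example of an unchanged gene. Both promoters are the 250 bases before a start site in RefSeq's annotation of the rat assembly GRCr8, on the plus strand. They lie at chr2:54225662-54225911 for the downstream Selenop start and at chr2:236302189-236302438 for Selenof. Capitals mark TATAAA, the TATA box, and GTAAACA, a core of forkhead factor sites. Each was searched on both strands, and they do not overlap here.
Selenop: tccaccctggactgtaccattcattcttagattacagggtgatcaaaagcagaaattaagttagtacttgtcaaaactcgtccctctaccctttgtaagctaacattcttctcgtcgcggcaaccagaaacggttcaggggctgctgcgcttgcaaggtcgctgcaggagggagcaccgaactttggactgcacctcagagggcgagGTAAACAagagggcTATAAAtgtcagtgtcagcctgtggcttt
Selenof: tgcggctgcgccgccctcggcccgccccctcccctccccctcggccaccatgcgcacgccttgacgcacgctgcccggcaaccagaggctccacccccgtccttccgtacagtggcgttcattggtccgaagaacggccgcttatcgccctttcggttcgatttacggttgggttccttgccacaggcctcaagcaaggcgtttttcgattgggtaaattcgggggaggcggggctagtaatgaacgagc

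In windows of 300 bases, 250 before and 50 after the start, the Selenop window held GTAAACA from base 208 and TATAAA from base 222. Of 33469 such windows of all RefSeq genes, 14.2% held TATAAA and 3.78% held GTAAACA. Selenow had a TATAAA as well, from base 111. No other window of the 10 genes, which had 14 windows in all, held either motif. TGACNNNGC, the core of the antioxidant response element bound by Nrf2, was found in 12.1% of all windows and in 1 of the 14, that of Txnrd1, from base 173 on the minus strand. The motifs were chosen with the sequences in view, and a match says only that these letters are present.

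The starts also differed in CpG content. The downstream Selenop window held 10 CpG dinucleotides at a GC content of 50%, at percentile 59.7 of all windows, whose median was 7, and its upstream window held 5. Selenof held 30 CpG dinucleotides at percentile 90.2. The 3 Gpx4 windows held 29, 27 and 31, and those of Selenos and Selenow held 24 and 21. The other genes lay between 5, in 1 of the 2 Txnrd1 windows, and 20, in the other. The gene that differed most between the groups was thus not among the most CpG-rich of the 10. Gpx3, with 12 CpG dinucleotides, differed by only -0.12 on the log2 scale. A relation between CpG content and the differences was not tested.

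**Figure D2:**
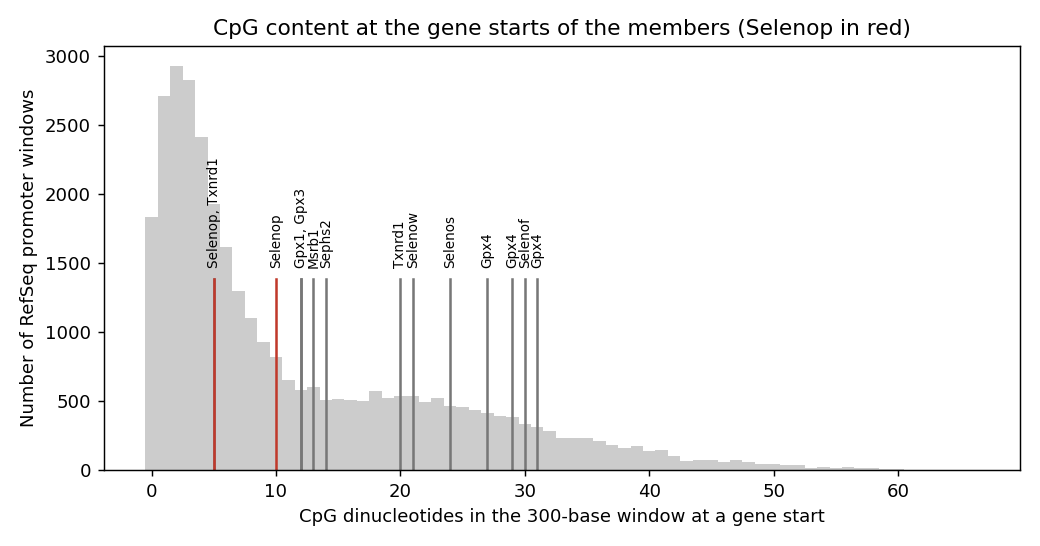
Number of CpG dinucleotides per 300-base window at gene starts (x axis) against the number of windows (y axis) for all 33469 RefSeq windows, with a vertical line for each window of the 10 selenoprotein genes, Selenop in red. The Selenop windows, at 5 and 10, lie near the median of 7, while those of Gpx4 and Selenof lie between 27 and 31.

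Across the 13 probe sets, 4 were higher in ShSuz12 at a limma adjusted p under 0.05, 1 was lower and 8 were past it in neither direction. Of all probe sets, 14.8% were higher and 19.5% lower by the same rule. With array medians subtracted the 13 split into 3 higher and 5 lower, so the balance of directions depends on the scaling. The threshold was applied to the differences that were in view when the genes were chosen, and nothing is read from these counts. At 2-fold or more, 1 was higher, the brighter Selenop probe set, where 3.1% of all probe sets were. None was 2-fold lower, also without adjustment and by the methods' t-test, where 0.396% of all probe sets were. The 3 arrays of each group did not overlap for 5 probe sets that were higher and 4 that were lower, against 19.4% and 28.1% of all probe sets. The median log2 difference of the 13 was -0.05, the same as that over all probe sets. With each gene taken by its brightest probe set and Selenop left out, the 9 others lay between -0.25 and 0.44 with a median of -0.05. Apart from Selenop, no gene of the 10 differed by more than the 1.36-fold of Selenow.

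**Figure D3:**
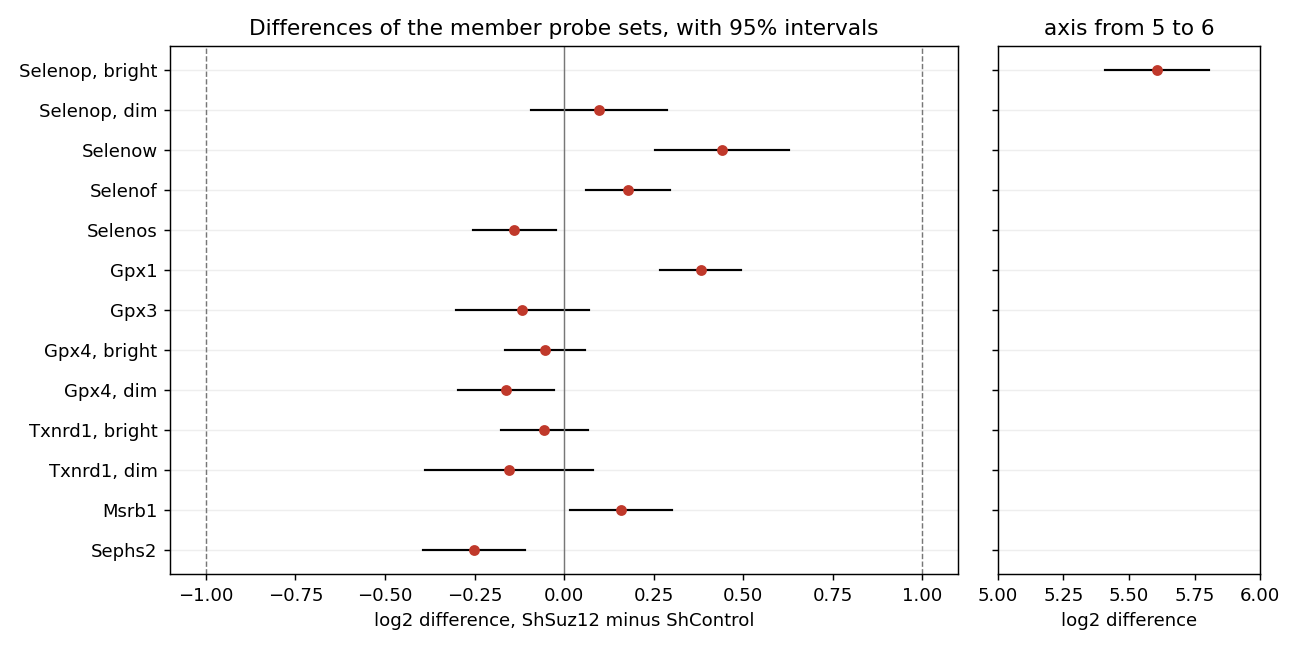
Log2 difference of ShSuz12 minus ShControl (x axis) for each of the 13 selenoprotein probe sets (y axis), with bars for the 95% interval, dashed lines at 2-fold and a separate axis for the brighter Selenop probe set. Selenop reaches 5.61 on its brighter probe set and 0.10 on its dimmer one, and the other 11 lie between -0.25 and 0.44.

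The glutathione peroxidases reduce peroxides with glutathione. Gpx1, the common cytosolic form, gave 11.41, 11.39 and 11.43 in ShControl and 11.80, 11.78 and 11.81 in ShSuz12. All ShSuz12 arrays were above all ShControl arrays, and the log2 difference of 0.38 (SE 0.05, 95% interval 0.27 to 0.49) corresponds to 1.30-fold. Gpx3, the secreted plasma form, gave 6.07, 6.34 and 6.20 against 6.03, 6.18 and 6.05. Its groups overlapped, with a difference of -0.12 (SE 0.08, 95% interval -0.30 to 0.07).

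Gpx4 reduces lipid hydroperoxides within membranes and restrains ferroptosis, a form of cell death driven by lipid peroxidation. Its brighter probe set gave 11.71 on each ShControl array and 11.64, 11.65 and 11.68 on the ShSuz12 arrays. The ShSuz12 arrays were all lower, by only 0.05 (log2 difference -0.05, SE 0.05, 95% interval -0.17 to 0.06). The dimmer probe set gave 6.03, 6.12 and 6.09 against 5.99, 5.86 and 5.91, also without overlap (log2 difference -0.16, SE 0.06, 95% interval -0.30 to -0.03). Neither was in the count of lower probe sets, and both entered it with array medians subtracted. Gpx2, outside the 10, was higher in ShSuz12 by 0.38 (SE 0.12, adjusted p = 0.0384). It lay at percentile 12.6 in ShControl and at percentile 20.3 in ShSuz12, and it lost the call in 4 of the 6 fits that each left out 1 array, keeping it without ShControl replicate 1 or ShSuz12 replicate 2, with differences of 0.25 to 0.43 in those that lost it.

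The thioredoxin reductases use NADPH to reduce thioredoxin. Txnrd1, the cytosolic enzyme, gave 10.29, 10.26 and 10.19 in ShControl and 10.21, 10.18 and 10.19 in ShSuz12 on its brighter probe set. The arrays overlapped, with a difference of -0.06 (SE 0.05, 95% interval -0.18 to 0.07). With array medians subtracted, this probe set entered the count of lower ones, at -0.16. On the dimmer probe set, 9.70, 9.28 and 9.42 stood against 9.28, 9.28 and 9.37, with overlap and a difference of -0.15 (SE 0.10, 95% interval -0.39 to 0.08). The mitochondrial Txnrd2, not among the 10, went from 6.78, 6.68 and 6.73 to 6.40, 6.48 and 6.38. It fell by 0.31 (log2 difference -0.31, SE 0.06, adjusted p = 0.00367), and Txnrd3, known from the testis, differed by 0.16 (adjusted p = 0.0841).

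Selenow and Msrb1 are small selenoproteins of the cytosol, and Msrb1 repairs oxidised methionine. Selenow gave 8.55, 8.24 and 8.37 in ShControl and 8.79, 8.86 and 8.84 in ShSuz12. All ShSuz12 arrays were higher, and its log2 difference of 0.44 (SE 0.08, 95% interval 0.25 to 0.63) was the largest after Selenop. Msrb1 gave 9.47, 9.38 and 9.37 against 9.65, 9.55 and 9.50. The groups did not overlap there either, but the difference of 0.16 (SE 0.06, 95% interval 0.02 to 0.30) was not in the count of higher probe sets. It entered that count under both filters on dim probe sets, with the intensity trend, after a second quantile normalisation and by the methods' t-test without adjustment. Selenoh, a nuclear selenoprotein outside the 10, differed by 0.14 (adjusted p = 0.0692).

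Selenof and Selenos belong to the endoplasmic reticulum. Selenof, a partner of the glycoprotein folding sensor UGGT, gave 11.90, 11.86 and 11.91 in ShControl and 12.10, 12.04 and 12.07 in ShSuz12. The ShSuz12 arrays were all higher, by 0.18 (SE 0.05, 95% interval 0.06 to 0.30), but Selenof left the count of 4 in 5 of the 6 fits without 1 array, with differences of 0.16 to 0.19, and stayed in it only without ShControl replicate 3. Selenos, which takes part in the removal of misfolded proteins, gave 11.52, 11.51 and 11.47 against 11.34, 11.40 and 11.35. Here the ShSuz12 arrays were all lower, with a difference of -0.14 (SE 0.05, 95% interval -0.26 to -0.02) that was not in the count of lower probe sets. It entered that count under both filters, with the intensity trend, with array medians subtracted and by the methods' t-test with or without adjustment. The 2 thus pointed in opposite directions.

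Other selenoproteins of the endoplasmic reticulum, outside the 10, included the one that fell furthest. Selenot, a thioredoxin-like membrane protein, went from 11.30, 11.40 and 11.38 to 10.46, 10.47 and 10.40 and fell by 0.92 (log2 difference -0.92, SE 0.06, adjusted p = 9.41e-06). A further Selenot probe set fell by 1.11 (log2 difference -1.11, adjusted p = 6.94e-05). Selenom, a luminal relative of Selenof, rose from 9.12, 9.11 and 9.21 to 9.62, 9.57 and 9.52, by 0.43 (SE 0.06, adjusted p = 7.29e-04). Selenok, Selenon and Selenoi differed by 0.05, 0.11 and -0.21 and did not pass (adjusted p = 0.517, 0.369 and 0.0770), and 2 probe sets of Selenon pointed in opposite directions. The deiodinases, which activate or inactivate thyroid hormone, differed by 0.02 for Dio1, 0.16 for Dio2 and 0.09 for Dio3 (adjusted p = 0.875, 0.285 and 0.256), with Dio1 and Dio2 below the 20th percentile of the arrays in both groups.

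In all, 12 of the 14 other selenoproteins listed had a probe set of their own, and Selenoo and Selenov had none. Of the 12, 2 were higher, 2 lower and 8 did not pass, with a median log2 difference of 0.10 against -0.05 over all genes. Over all genes by the brightest probe set, 17.1% were higher and 23.3% lower. At 2-fold or more the 12 had 0 calls by limma with or without adjustment and 0 by the methods' t-test, where 3.82% of all genes were higher and 0.422% lower. The further Selenot probe set, which this count leaves out, was past 2-fold.

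Sephs2 is the selenophosphate synthetase that makes the selenium donor for selenocysteine, and is itself a selenoprotein. It gave 9.16, 9.27 and 9.32 in ShControl and 9.00, 9.04 and 8.96 in ShSuz12. Every ShSuz12 array was lower, with a difference of -0.25 (SE 0.06, 95% interval -0.39 to -0.11), and this was the 1 probe set counted as lower. Without ShSuz12 replicate 3 the difference was -0.23 and the count fell to 0.

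A list of 18 genes covered selenium uptake, selenocysteine synthesis and its insertion, and also held Selenbp1, which binds selenium outside these steps. Of the 17 measured, 1 was higher, 5 lower, Selenbp1 among them, and 11 did not pass, where 17.1% of all genes were higher and 23.3% lower. With array medians subtracted, 10 were lower. The median was -0.09, with 0 at 2-fold or more by limma with or without adjustment and by the methods' t-test. Among the receptors, Lrp2 (megalin), which takes up selenoprotein P in the kidney, fell by 0.90 (log2 difference -0.90, SE 0.10, adjusted p = 2.12e-04). Its arrays read 8.08, 8.42 and 8.08 in ShControl and 7.32, 7.25 and 7.31 in ShSuz12, without overlap. Lrp8, the receptor of brain and testis, overlapped between the groups (log2 difference -0.09, adjusted p = 0.512).

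In the synthesis of selenocysteine, Sephs1, the paralog of Sephs2 that is no selenoprotein, fell by 0.43 (log2 difference -0.43, adjusted p = 9.60e-04). Its 5 probe sets gave -0.43, -0.35, -0.24, -0.23 and 0.03. Trnau1ap, which binds the selenocysteine tRNA, fell by 0.49 (log2 difference -0.49, adjusted p = 2.25e-04), from 9.40, 9.34 and 9.44 to 8.92, 8.90 and 8.89. Scly, the lyase that recovers selenium from selenocysteine, fell by 0.29 (log2 difference -0.29, adjusted p = 0.0113). The steps that load the tRNA did not pass, with -0.10 for Sars1, -0.07 for Pstk and -0.03 for Sepsecs.

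Among the factors that read the SECIS element, Secisbp2l, a paralog of the main binding protein, rose by 0.31 (adjusted p = 0.00600), while its dimmer probe set differed by 0.17 (adjusted p = 0.140). Secisbp2, the main SECIS-binding protein, differed by -0.08 and Eefsec, the elongation factor for selenocysteine, by 0.02, and neither passed. Other RNA-binding proteins that act on selenoprotein mRNAs did not pass either by their brightest probe set, with -0.12 for Eif4a3, -0.10 for Ncl, -0.05 for Rpl30, whose probe set lay below the 20th percentile in both groups, -0.08 for Celf1 and 0.04 for Xpo1. Of the 5 Celf1 probe sets, the dimmest was lower (log2 difference -0.42, adjusted p = 0.0134) and the others did not pass. Selenbp1, which binds selenium but has no selenocysteine, fell by 0.76 (log2 difference -0.76, SE 0.05, adjusted p = 2.04e-05), from 11.83, 11.85 and 11.75 to 11.06, 11.04 and 11.06.

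**Figure D4:**
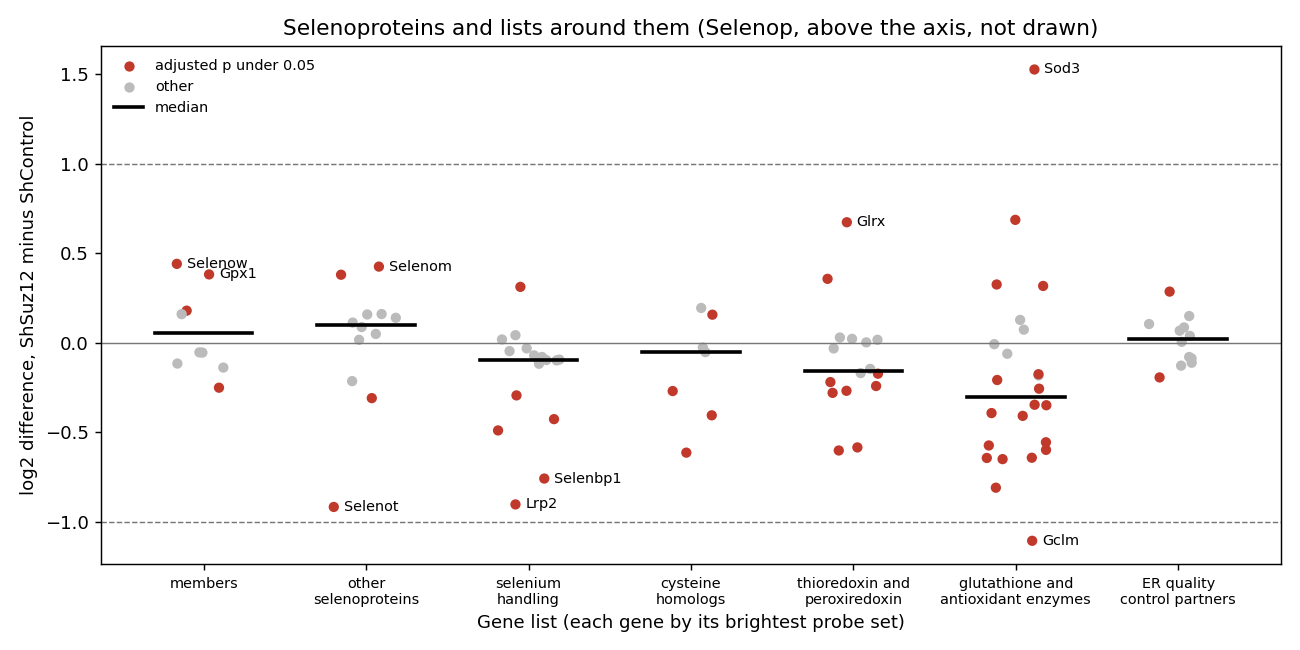
Log2 difference of ShSuz12 minus ShControl (y axis) for the genes of 7 lists (x axis, each gene by its brightest probe set), with red points for a limma adjusted p under 0.05, grey points for the rest a black line at each list's median and dashed lines at 2-fold. The first list holds the 10 selenoproteins. Selenop, at 5.61, lies above the axis. Selenot and Lrp2 lie near -0.90, and the glutathione and antioxidant list has the lowest median, -0.30.

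The enzymes around the selenoproteins were counted in the same way, by the brightest probe set of each gene. Of 24 measured genes of glutathione and antioxidant metabolism, 4 were higher, 15 lower and 5 did not pass, with a median of -0.30. Over all genes, 17.1% were higher and 23.3% lower. Gclm, the modifier subunit of the ligase that begins glutathione synthesis, fell by 1.11 (log2 difference -1.11, adjusted p = 5.65e-06), and Me1, a source of NADPH, fell by 0.81 (log2 difference -0.81, adjusted p = 4.76e-05). Sod3, the extracellular superoxide dismutase, rose by 1.53 (adjusted p = 2.84e-07), and Gsta4, which conjugates products of lipid peroxidation, by 0.69 (adjusted p = 4.73e-05).

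Of 16 thioredoxin and peroxiredoxin genes, 2 were higher, 7 lower and 7 did not pass, with a median of -0.16. The shares over all genes were 17.1% higher and 23.3% lower. Glrx, glutaredoxin, rose by 0.67 (adjusted p = 5.62e-05) and Txnip, which binds thioredoxin, by 0.36 (adjusted p = 0.00140). Prdx6, a peroxiredoxin that uses glutathione, fell by 0.60 (log2 difference -0.60, adjusted p = 0.00240), and Srxn1, which repairs overoxidised peroxiredoxins, by 0.58 (log2 difference -0.58, adjusted p = 9.88e-05). The medians of both lists lay below the -0.05 of all genes, and a difference between lists was not tested.

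Of 7 relatives of the selenoproteins that carry cysteine in place of selenocysteine or do a related reduction, 1 was higher and 3 lower. The other 3 did not pass, and the median was -0.05, where 17.1% of all genes were higher and 23.3% lower. Glutathione reductase (Gsr) fell by 0.61 (log2 difference -0.61, adjusted p = 0.00812), Msra, the partner of Msrb1 in methionine repair, by 0.41 (log2 difference -0.41, adjusted p = 0.00213) and Gpx7, a peroxidase of the endoplasmic reticulum, by 0.27 (log2 difference -0.27, adjusted p = 0.00672). Gpx8 was higher by 0.16 (adjusted p = 0.0486), a call lost in 6 of the 6 fits that left out 1 array. Of 12 partners of Selenof and Selenos in quality control of the endoplasmic reticulum, 1 was higher, 1 lower and 10 did not pass, against the same shares over all genes. Uggt2, a paralog of the folding sensor, rose by 0.29 (adjusted p = 0.0138, and 0.26 with no call without ShSuz12 replicate 1), and Derl2, part of the channel for misfolded proteins, was lower (log2 difference -0.19, adjusted p = 0.0209), a call lost in 4 of the 6 fits and kept without ShControl replicate 1 or 2.

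The genes whose pattern was most like that of the brighter Selenop probe set were sought over the 6 arrays, after subtraction of each probe set's ShControl mean, by the root mean square difference. Arxes2 and Arxes1, a pair of near-identical genes that may share signal, were nearest, at 0.214 and 0.219, with a log2 difference of 5.35 each. They were followed by Lbp, the lipopolysaccharide-binding protein, at 0.262, by Ndn (necdin) at 0.290 and by Gjb2 (connexin 26) at 0.345. Their log2 differences were 5.26, 6.01 and 5.14. Pearson's r with Selenop was 0.999 to 1.00, a value that any gene with so large a step between the groups would approach.

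**Figure D5:**
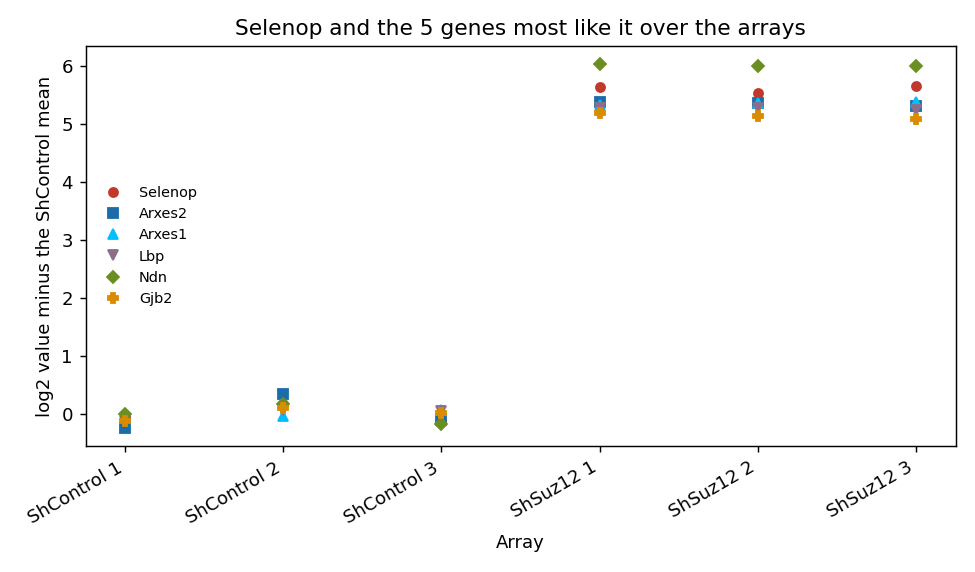
Log2 value minus the ShControl mean (y axis) on each of the 6 arrays (x axis) for the brighter Selenop probe set and the 5 genes nearest to it. All 6 stay near 0 on the ShControl arrays and lie between about 5 and 6 on the ShSuz12 arrays.

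Markers of cell types were counted beside Selenop. Of 15 hepatocyte markers, from the cells that make most plasma selenoprotein P, 3 were higher and 2 lower, where 17.1% of all genes were higher and 23.3% lower, and 0 differed by 2-fold or more by limma with or without adjustment and by the methods' t-test. Their mean log2 value on an array was 4.38 to 4.45 in ShControl and 4.43 to 4.47 in ShSuz12, with 5 of the 15 below the 20th percentile in both groups. Of 17 leukocyte and macrophage markers, 1 was higher and 4 lower, again with 0 at 2-fold or more by the same 3 counts, and means were 4.93 to 5.00 and 4.88 to 4.96. In both lists the ranges of the means overlapped between the groups.

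The list of fibroblast and smooth muscle markers moved in both directions. Of 20, 12 were higher, 8 of them at 2-fold or more, and 2 lower, with 0 at 2-fold lower. Over all genes, 17.1% were higher and 23.3% lower, and at 2-fold or more 3.82% were higher and 0.422% lower. The mean of the 20 went from 7.94 to 7.99 in ShControl to 8.90 to 8.92 in ShSuz12. The largest were Postn at 3.48, Lum at 2.46, Col1a2 at 2.34 and Col3a1 at 2.33 on the log2 scale. The 2 lower ones were the smooth muscle genes Acta2 (log2 difference -0.66, adjusted p = 4.22e-05) and Tagln (log2 difference -0.35, adjusted p = 0.00142), while Myh11 and Des, also of muscle, rose by 0.65 and 0.36 (adjusted p = 0.00153 and 0.00656). None of the 20 lay below the 20th percentile in both groups, though Lum lay at percentile 8.99 in ShControl. Of 18 markers of the intestinal epithelium, 3 were higher, all at 2-fold or more, Lgr5 by 3.59, Cdx2 by 1.56 and Krt19 by 1.19. The 2 lower ones, Cdh1 (log2 difference -0.76) and Krt8 (log2 difference -0.41), were not past 2-fold. The mean of the 18 was 5.31 to 5.36 in ShControl and 5.58 to 5.66 in ShSuz12. Their median log2 difference was only -0.003, so the higher mean is no general rise of these markers. Below the 20th percentile in both groups lay 7 of the 18, including Epcam and Krt18, so the epithelial label rests on part of its markers. The part of these shifts in the Selenop result was not tested.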

How the data were processed

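Total RNA from 3 ShControl and 3 ShSuz12 IEC-6 cultures was hybridised to 1 Affymetrix array each. The deposited values are log2 expression values per probe set, which the authors made by RMA (background correction, quantile normalisation and summarisation over all arrays), with the RMA version not given in the sources used here. Scanner files were not used, so background and detection could not be assessed, and the number of arrays limits the precision. Quantile normalisation gives every array nearly the same distribution, so a shift shared by most genes would be removed.

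Of 31099 probe sets, 57 controls were left out. GEO's platform annotation gave 20826 probe sets 1 symbol and 436 several, and 9780 were not listed and stay unnamed. No gene was named from a probe set with several symbols. Groups were compared with limma 3.58.1 (lmFit and eBayes, R 4.3.3) on all 31042 probe sets with Benjamini-Hochberg adjustment at 0.05. Genes were counted through their brightest probe set, by the mean over all 6 arrays. An exact permutation test of 3 against 3 arrays cannot go below 0.1 and was not used. The fit was tested on simulated data.

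The selenoproteins, lists and motifs were chosen with earlier results of these data known. Named were every probe set of the 10 selenoproteins, every other selenoprotein and selenium handling gene, up to 4 genes with the largest called difference per further list, Suz12 and the 5 genes most like Selenop. Marker genes are named as the largest differences or as examples. Replicate numbers did not pair the arrays (correlations of deviations 0.017, -0.042 and -0.064). Alternatives were 2 filters on dim probe sets (above the 40th or 60th percentile on at least 2 arrays of a group), array median subtraction, a second quantile normalisation, an intensity trend with robust eBayes, averaging the probe sets of each gene, the methods' t-test, a replicate block and leaving out each array. Promoter windows are from RefSeq (GRCr8).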

Additional observations from a re-analysis of the deposited data

How the results depend on the processing

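Of the 13 selenoprotein probe sets, 12 kept the direction of their difference under every alternative run. The exception was the dimmer Selenop probe set, which was at -0.0026 after subtraction of array medians. The brighter Selenop probe set stayed the 1 called at 2-fold or more. It passed both filters through the ShSuz12 arrays only, at percentile 8.17 in ShControl and 85.9 in ShSuz12. Its call under the filters therefore adds nothing to the difference itself. The call of Selenof was lost after subtraction of array medians, where its difference was 0.08, that of Gpx1 0.28 and that of Msrb1 0.06. The count of lower selenoprotein probe sets, 1, was 3 above the 40th percentile, 2 above the 60th, 5 after median subtraction, 2 with the intensity trend, 3 by the methods' t-test with adjustment, 4 without, and 2 after a second quantile normalisation. It ranged from 0 to 1 when arrays were left out, and the higher count, 4, from 3 to 4. Under the other alternatives the higher count lay between 3 and 5. The filters kept 12 and 10 of the 13 probe sets, and the dimmer Selenop probe set was in neither.

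Median subtraction moved the calls over all probe sets to 3576 higher and 11752 lower, or 23.3% higher of all calls against 43.2%, with 194 at 2-fold lower. Above the 60th percentile, 2948 were higher, 556 of them at 2-fold. Without 1 array, 3960 to 4490 were higher and 4572 to 5801 lower, and 943 to 974 and 119 to 130 at 2-fold. With the replicate number as a block, 4287 were higher and 5324 lower, and Selenof lost its call.

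Other selenoproteins called higher, 2, were 1 after median subtraction, 4 by the mean of probe sets and 1 to 2 without 1 array. Lower selenium handling genes, 5, were 10 after median subtraction and 8 with the trend or the unadjusted t-test. Higher antioxidant genes, 4, were 2 above the 60th percentile. Higher cysteine relatives, 1, were 2 above the 40th percentile, by the mean of probe sets or the unadjusted t-test, 0 after median subtraction or with the block, and 0 to 1 without 1 array. Higher endoplasmic reticulum partners, 1, were 2 above the 60th percentile or after a second quantile normalisation, 3 with the trend or the unadjusted t-test, 0 after median subtraction or by the adjusted t-test, and 0 to 2 without 1 array. Lower ones, 1, were 2 under both filters, the trend and both t-test counts, 4 after median subtraction, 3 by the mean of probe sets, 0 with the block or a second quantile normalisation, and 0 to 1 without 1 array. The cause of these shifts was not tested.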
